A study of Mus musculus with 2 samples.

Results

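The genes described here encode the machinery that brings secretory proteins into the endoplasmic reticulum (ER), trims and glycosylates them there, and carries them to and from the Golgi. They were chosen by gene symbol from a table of 44713 genes and comprise 76 protein-coding genes. By role they are 10 genes of the signal recognition particle (SRP) and its receptor, 10 of the translocon, 5 of signal peptidase, 9 of the oligosaccharyltransferase, 14 of the COPII coat, 19 cargo receptors and Sec22 proteins, and 9 of the COPI coat. RNA sequencing counts came from 2 libraries of mouse pancreatic islet preparations, labelled C57BL/6 in both cases. The db/db library came from mice labelled Lepr-/-, a whole-body mutation of the leptin receptor gene that is used as a model of obesity and type 2 diabetes. The db/m library, labelled wild type, was the control. Age, sex, housing and the number of animals behind a library are not analysed here, and the labels do not say whether islets of several animals were pooled.

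As background, a protein destined for secretion carries a signal peptide that SRP binds on the ribosome and delivers to the SRP receptor on the ER. The chain then passes through the Sec61 channel, loses its signal peptide to signal peptidase and receives N-linked glycans from the oligosaccharyltransferase. COPII vesicles carry folded cargo out of the ER, and COPI vesicles return escaped residents and receptors from the Golgi. Acinar cells, which make digestive enzymes, and beta cells, which make insulin, both use this pathway heavily.

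The db/db library held 18233695 counts in all and the db/m library 16271129. With the scaling used, 1 count was worth 0.0516 CPM (counts scaled to library size) for db/db and 0.0653 CPM for db/m. A set of 20 acinar markers, all detected in both libraries, made up 61.6% of all db/db counts (95% interval, exact binomial, 61.57% to 61.62%) and 62.5% for db/m (62.43% to 62.48%). The 10 beta cell markers took 0.166% and 0.147%, and 10 markers of other endocrine cells 0.0419% and 0.0117%. Set against the label of islet cells, the defining endocrine markers were present but small beside the acinar ones. Below, counts in db/db islets or db/m islets are those of the whole library and not of islet cells alone. Which cell types gave the counts of the genes described was not tested. The summed CPM of the acinar markers had a db/db over db/m ratio of 0.873 (95% counting interval 0.873 to 0.874), that of the beta cell markers a ratio of 1 (0.983 to 1.02) and that of the other endocrine markers 3.17 (3.01 to 3.33). Within these lists, 2 of 20 acinar markers were at least 2-fold lower (median log2 ratio -0.25), as were 6 of 10 beta cell markers (median -1.19, although the sum was level), and 5 of 8 other endocrine markers compared were at least 2-fold higher (median 2.26). Duct markers made up 0.0137% and 0.0174%. Stromal, endothelial and immune markers each took 0.00104% or less of either library. The markers at 0 counts were Esm1, Cd3e and Ms4a1 in db/db and Irx2 in db/m. Genes of the mitochondrial genome made up 0.126% in db/db and 0.293% in db/m. The part that these differences have in the ratios below was not tested. In bulk RNA, fewer cells of a type and less RNA per cell cannot be told apart.

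Most of the translocon, glycosylation and coat genes stood slightly higher in the db/db library, by less than 2-fold, and 1 member, Tmed11, was clearly lower. Of the 76 genes, 73 reached a mean of 1 CPM, and Srp54a, Copz1 and Tmed1 did not. Among those 73, the db/db over db/m ratio was above 1 for 60 (82.2%), against 52.4% of all 10300 genes compared. Their median log2 ratio was 0.18, a 1.13-fold level, and the median over all compared genes was 0.02. Together the 76 genes had 92876 counts in db/db islets (0.509% of the library) and 63426 in db/m islets (0.39%), a ratio of 1.16 after scaling (1.15 to 1.17). Per 1000 acinar marker counts, which is another scaling and was added after values were seen, the libraries held 8.27 and 6.24 member counts. Their ratio was 1.33 (1.31 to 1.34). The acinar markers did not move as 1, with 13 of 20 having an interval below 1 and 6 an interval above 1.

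The 95% interval beside every ratio covers counting error alone. Since each group has 1 library, replicate error could not be estimated and no test was run. The intervals describe these libraries rather than the genotypes. Of the 76 genes, 22 overlap another RefSeq gene, Srpr, Ssr1, Rpn2, Spcs1, Copa, Sar1a, Sec16b and Kdelr3 among them, and as the labels do not say whether counting used strand, those values are uncertain. To be called, a gene needed a mean of at least 1 CPM, a difference of at least 2-fold and an interval excluding 1. Under this rule 0 members were called higher, where 3.83% of all compared genes were, and 1 was called lower, where 4.04% were. At a limit of 1.5-fold, 4 members were higher (Ddost, Tmed4, Sec16b and Magt1) beside 8.63% of all genes, and 1 was lower beside 8.87%. With no fold limit, the interval lay above 1 for 37 members (50.7%), against 20.7% of all genes, and below 1 for 3 (4.11%), against 18.2%. The 3 were Tmed11, Ssr4 and Tmed6. Deeply counted genes have narrow intervals, and among genes with at least 10 CPM the shares were 33 of 56 members (58.9%) against 28.9% above 1, and 3 members (5.36%) against 23% below 1. The members' shift was thus small in size, and it concerned many genes of the list.

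The size of the shift depended on the scaling. Scaling by total counts raised every log2 ratio by 0.175, so that the medians became 0.35 for the members and 0.2 for all genes, and 69 members (94.5%) had a ratio above 1, against 68.5% of all genes. Of the 13 members with a ratio below 1, 4 were still below it (Tmed11, Ssr4, Srp14 and Srp54c), while Copb2, Sec23a, Sec24b, Srp54b, Sec22b, Sec62, Sec11c, Tmed6 and Tmed8 moved to the other side. The interval then lay above 1 for 52 members (71.2%), against 35.2% of all genes, and below 1 for 2, against 9.85%. When the totals left out marker genes, it lay above 1 for 47 (64.4%), against 32.4%, and below 1 for 2, against 11%. With 2 libraries, a change of scaling adds the same value to every log2 ratio. The distance between these medians, 0.15, is therefore the same by construction under every scaling used. These were TMM, total counts, DESeq2 size factors and total counts that left out acinar and endocrine markers.

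**Figure D1:**
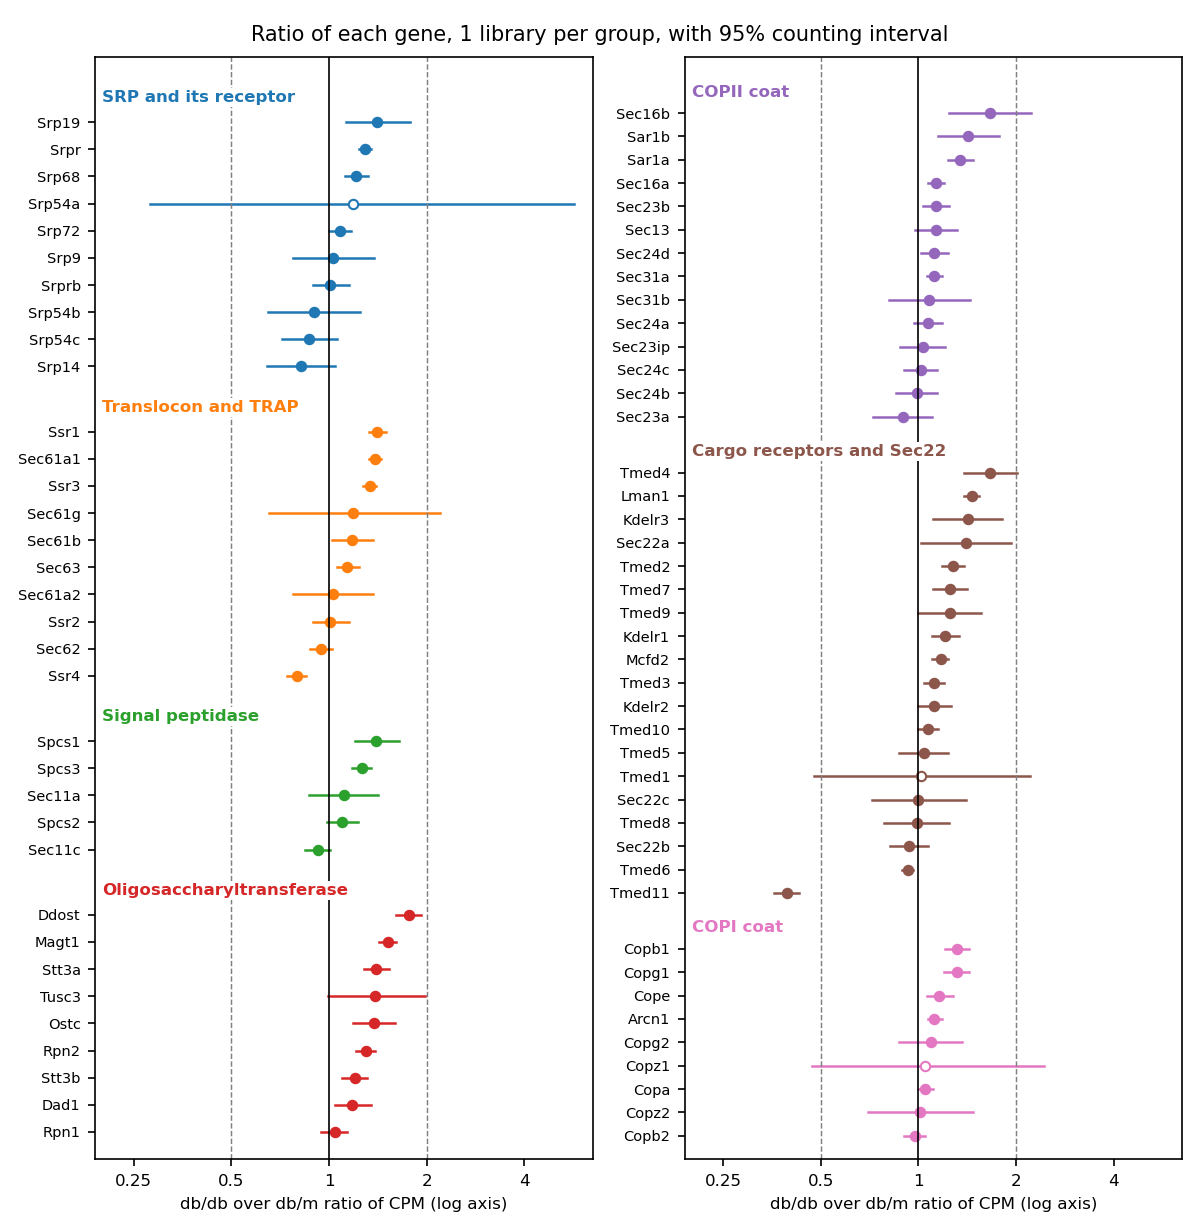
Ratio of db/db over db/m for each of the 76 genes, by role, on a log axis. Points are ratios of CPM from 1 library per group, bars are 95% counting intervals, open points mark the 3 genes under 1 CPM, and dashed lines stand at 2-fold; most points lie right of 1, and Tmed11 alone lies beyond a dashed line.

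**Figure D2:**
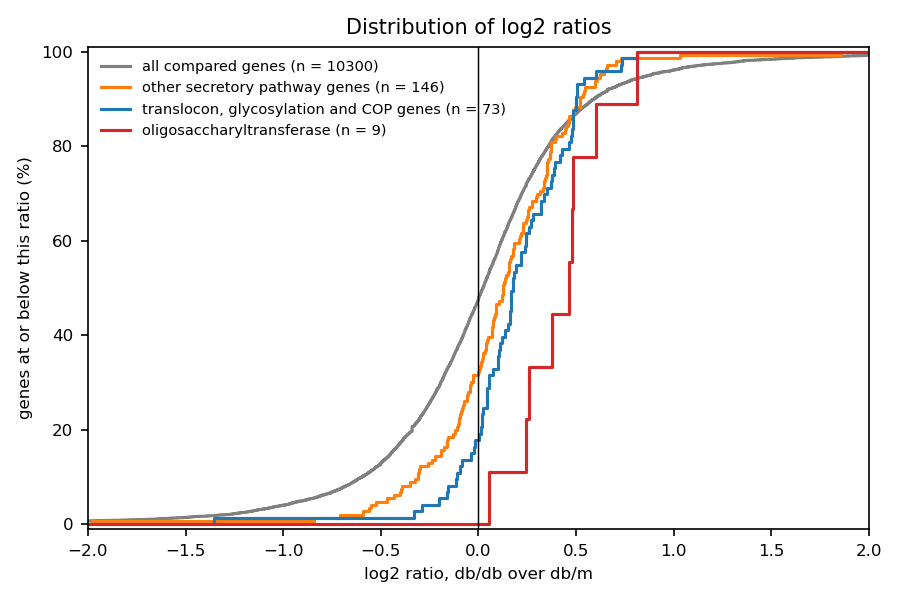
Cumulative share of genes (%) by log2 ratio for all 10300 compared genes, 146 other secretory pathway genes, the 73 members compared and the 9 oligosaccharyltransferase genes. The curve of the members lies to the right of the curve of all genes around 0, with medians of 0.18 and 0.02, and that of the oligosaccharyltransferase genes lies farthest right, with a median of 0.47.

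Because many members lay on the same side of 1, the promoters in RefSeq's table for GRCm38.p6 (250 bases before to 50 bases after a gene's start) were searched on both strands for elements known from the ER stress response. The elements were chosen with the ratios known, and 62 of the 76 members had an entry. The unfolded protein response element TGACGTGG, a sequence that Xbp1 can bind, stood in 6 of the 62 (9.68%), against 84 of 7329 compared protein-coding genes (1.15%) and 0.714% of all 27025 genes in the table. These 6 stretches are shown, 5′ to 3′ along the gene's strand, because they are the members with the full element, which is in capitals and reads CCACGTCA where it lies on the opposite strand.
Copb1: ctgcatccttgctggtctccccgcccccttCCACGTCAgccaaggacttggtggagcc
Copb2: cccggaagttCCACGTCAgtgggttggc
Kdelr3: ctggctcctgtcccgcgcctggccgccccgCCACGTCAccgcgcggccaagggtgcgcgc
Sec16b: tctgtgtggcTGACGTGGcacggcagtt
Sec23a: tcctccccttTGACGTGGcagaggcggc
Sec24d: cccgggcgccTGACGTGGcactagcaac
The stretches lie at chr7:114254681-114254738 (minus strand), chr9:98563714-98563741 (plus), chr15:79516348-79516407 (plus), chr1:157506742-157506769 (plus), chr12:59011994-59012021 (minus) and chr3:123267460-123267487 (plus), in the order printed. The element begins 28 bases before the annotated start in Copb1, 30 in Kdelr3, 44 in Sec16b and 26 in Sec24d. In Copb2 it spans the start, and in Sec23a it lies after it. The starts used for Sec16b and Sec24d lie inside longer models of those genes. Ratios of the 6 genes ran from 0.895 for Sec23a to 1.66 for Sec16b. The full element stood in 4 of 28 members with an interval above 1 and in 2 of 32 whose interval included 1. Among members with an interval below 1 it stood in 0 of 2. Whether the element bears on the ratios was not tested. The core ACGTG, part of the element, stood in 38 of the 62 promoters (61.3%), against 31% of the compared protein-coding genes and 21.8% of all. It was found in 19 of 28 members with an interval above 1, in 19 of 32 whose interval included 1 and in 0 of 2 with an interval below 1. The ER stress response element (CCAAT and CCACG with 9 bases between) and its second form (ATTGG and CCACG with 1 base between) were found in 0 of the 62, against 0.177% and 0.109% of the compared genes. The cAMP response element (TGACGTCA) was found in 1, Cope, against 3.79%. The first 2 elements are so rare that 0 of 62 says little, and 1 match is too few to compare. A match is a string of letters and not a bound site.

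SRP and its receptor showed a mixed picture. The receptor's large subunit gene Srpr, whose product docks SRP at the ER membrane, had 5657 counts in db/db islets and 3456 in db/m islets (292 and 226 CPM), a ratio of 1.29 (1.24 to 1.35). Its membrane anchor Srprb had 567 and 442 counts, a ratio of 1.01 (0.894 to 1.15). The 2 subunits of the receptor therefore did not move by the same ratio, and Srpr relative to Srprb was 1.28-fold higher in the db/db library (1.12 to 1.46), a pair chosen after its values were seen. Srp19, which helps the particle assemble on its RNA, had the group's highest ratio, with 220 and 123 counts (1.41, 1.13 to 1.78). Srp68, which forms a heterodimer with Srp72, had 1473 and 960 counts (1.21, 1.12 to 1.32), and Srp72 had 1461 and 1069 (1.08, 0.998 to 1.17). Srp14, which with Srp9 slows elongation, had the lowest ratio, with 146 and 141 counts (0.818, 0.645 to 1.04). Srp9 had 115 and 88 counts (1.03, 0.776 to 1.38). For both genes of this Alu-binding dimer the interval included 1. The signal peptide is bound by Srp54, which mice encode in neighbouring copies on chromosome 12, Srp54a (55080476 to 55115367 in GRCm38), Srp54b (55155104 to 55189213) and Srp54c (55230118 to 55279331). They had 6 and 4, 83 and 73, and 220 and 200 counts, all with intervals including 1. Their values are uncertain, since the labels do not say how reads matching several copies were counted. Of the 9 genes compared in this group, 3 had an interval above 1 (33.3%, against 20.7% of all compared genes) and 6 an interval including 1. The median log2 ratio was 0.05.

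The translocon genes ranged from 0.795 to 1.41, with the main channel subunit near the upper end. Sec61a1, the pore-forming subunit of the protein-conducting channel (chromosome 6, 88503607 to 88518800), had 5065 counts in db/db islets and 2881 in db/m islets (261 and 188 CPM), a ratio of 1.39 (1.33 to 1.45). Its paralog Sec61a2 had 116 and 89 counts, a ratio of 1.03 (0.775 to 1.37). Relative to Sec61a2, Sec61a1 was 1.35-fold higher in the db/db library (1.01 to 1.8), an interval that only just excludes 1. The small subunits Sec61b and Sec61g both had a ratio near 1.2, with 474 and 317 counts for Sec61b (1.18, 1.02 to 1.37) and 30 and 20 for Sec61g (1.19, 0.651 to 2.2). Sec62 and Sec63 help chains enter the channel, and the interval excluded 1 for Sec63 alone. Sec63 had 1464 and 1011 counts (1.14, 1.06 to 1.24), and Sec62 1546 and 1294 (0.944, 0.876 to 1.02). In this group 5 of the 10 genes had an interval above 1 (50%, against 20.7% of all compared genes). For 1 it lay below 1 (10%, against 18.2%), and for 4 it included 1. The median log2 ratio was 0.22.

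The TRAP complex, encoded by Ssr1 to Ssr4, sits beside the channel and assists the entry of some chains, preproinsulin among them. Ssr1 had 2871 counts in db/db islets and 1605 in db/m islets (1.41, 1.33 to 1.5). Ssr3 had 4297 and 2543 (1.34, 1.27 to 1.4), and Ssr2 had 557 and 435 (1.01, 0.891 to 1.15). Ssr4, on the X chromosome (73787023 to 73790828), went the other way, with 1721 and 1711 counts, which after scaling are 88.8 and 112 CPM, a ratio of 0.795 (0.743 to 0.85). The 4 subunits of this complex thus spread from 0.795 to 1.41. Within each library Ssr4 had 0.599 counts per count of Ssr1 in db/db and 1.07 in db/m, a ratio of 0.562 (0.513 to 0.616). The same comparison, which does not depend on scaling and was chosen after the values were seen, gave 0.595 against Ssr3 (0.547 to 0.647) and 0.786 against Ssr2 (0.68 to 0.908). No other RefSeq gene overlaps Ssr4.

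Signal peptidase cuts the signal peptide off with its catalytic subunits Sec11a and Sec11c, helped by the accessory subunits Spcs1 to Spcs3. Spcs1 had 441 counts in db/db islets and 249 in db/m islets (1.4, 1.2 to 1.64), and Spcs3 2128 and 1331 (1.26, 1.18 to 1.35). Spcs2 had 781 and 562 counts (1.1, 0.984 to 1.23). The accessory subunits all had ratios above 1, for 2 of them with an interval excluding 1. Of the catalytic subunits, Sec11a had 163 and 116 counts (1.11, 0.87 to 1.42) and Sec11c 1018 and 870 (0.925, 0.844 to 1.01). Neither catalytic subunit had an interval excluding 1, and the balance between them was 1.2 (0.924 to 1.56). Of the 5 genes, 2 had an interval above 1 (40%, against 20.7% of all compared genes), and the median log2 ratio was 0.15.

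The oligosaccharyltransferase, which moves a preassembled glycan onto asparagine residues of the entering chain, had the highest median of the role groups. All 9 genes had a ratio above 1, against 52.4% of all compared genes. For 7 of them the interval lay above 1 (77.8%, against 20.7%). The median log2 ratio was 0.47, a 1.38-fold level. Ddost, a non-catalytic subunit (chromosome 4, 138304738 to 138312619), had 1592 counts in db/db islets and 715 in db/m islets (82.2 and 46.7 CPM). Its ratio of 1.76 (1.61 to 1.92) was the highest of all members compared and stayed under the 2-fold limit. The log2 ratio of Ddost, 0.82, rose to 0.99 with total counts and 0.96 when these left out marker genes, just under that limit. The catalytic subunit Stt3a, which works on chains still passing through the channel, had 1291 and 729 counts (1.4, 1.28 to 1.53). Stt3b, which can also glycosylate sites after passage, had 1275 and 841 (1.2, 1.1 to 1.31). Stt3a relative to Stt3b was 1.17-fold higher in the db/db library (1.03 to 1.33), so both catalytic subunits stood above 1 and the balance leaned slightly to Stt3a. Magt1, an oxidoreductase subunit of the Stt3b complex on the X chromosome (105968084 to 106011802), had 3173 and 1653 counts (1.52, 1.43 to 1.61). Its paralog Tusc3 had 97 and 55 (1.39, 0.991 to 1.98), and their balance of 1.09 had an interval including 1 (0.763 to 1.54). Ostc, a subunit of the Stt3a complex, had 505 and 289 counts (1.38, 1.19 to 1.6). Subunits of both forms of the enzyme were thus among those with an interval above 1. The shared subunits Rpn2 and Dad1 had ratios of 1.3 (1.21 to 1.39) and 1.18 (1.04 to 1.35). Rpn1 had the lowest ratio, with 1109 and 845 counts (1.04, 0.948 to 1.14). Ddost per Rpn1 was 1.44 in db/db and 0.846 in db/m islets, a ratio of 1.7 (1.49 to 1.93) for a pair chosen after its values were seen.

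**Figure D3:**
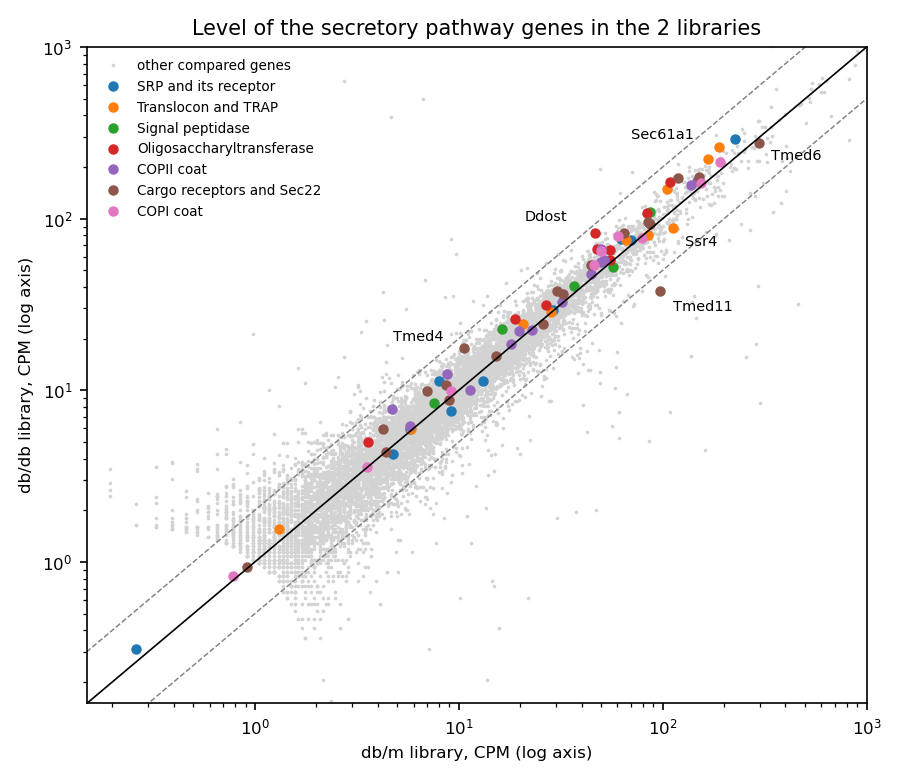
CPM of the 76 genes in the db/m library (x axis) and the db/db library (y axis), both on log axes, coloured by role. Grey points are other compared genes with counts in both libraries and within the range of the axes, so the most abundant genes are not shown. The solid line marks equal levels and the dashed lines 2-fold; Ddost, Tmed4 and Sec61a1 lie above the solid line, Ssr4 and Tmed6 below it, and Tmed11 beyond the lower dashed line.

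COPII coat genes ranged from 0.895 for Sec23a to 1.66 for Sec16b, and none was called. The GTPase that starts coat assembly is encoded by Sar1a and Sar1b. Sar1a had 1293 counts in db/db islets and 760 in db/m islets (1.34, 1.23 to 1.47), and Sar1b had 241 and 134 (1.42, 1.15 to 1.77). The paralogs shared their ratio within counting error (balance 0.946, 0.746 to 1.2). The inner coat pairs Sec23 with Sec24, which selects cargo. Sec23b had 1085 and 759 counts (1.13, 1.03 to 1.24), and Sec23a had 196 and 173 (0.895, 0.726 to 1.1), the lowest ratio of the group. Sec23a relative to Sec23b was 0.793 in the db/db library (0.629 to 0.999), with an interval that almost reaches 1. The 4 Sec24 paralogs ran from 0.986 to 1.12, with 438 and 351 counts for Sec24b, 632 and 492 for Sec24c, 922 and 680 for Sec24a and 1118 and 787 for Sec24d. The interval lay above 1 only for Sec24d (1.02 to 1.23), and its balance with Sec24a (1.05, 0.914 to 1.2), Sec24b (1.14, 0.959 to 1.35) and Sec24c (1.11, 0.95 to 1.29) did not exclude 1.

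In the outer COPII coat, Sec31a had 3195 counts in db/db islets and 2251 in db/m islets (1.12, 1.06 to 1.18), its paralog Sec31b had 120 and 88 (1.08, 0.812 to 1.44), and Sec13, which pairs with Sec31, had 433 and 303 (1.13, 0.973 to 1.31). The intervals of the 3 outer coat genes thus overlapped, and the balance of Sec31a and Sec31b was 1.04 (0.777 to 1.39). Sec16 proteins mark the ER exit sites where the coat forms. Sec16a had 3037 and 2118 counts (1.13, 1.07 to 1.2). The shorter paralog Sec16b (chromosome 1, 157506733 to 157568425) had 151 and 72 (1.66, 1.24 to 2.23), the highest ratio of the group, and relative to Sec16a it was 1.46-fold higher (1.09 to 1.98). Sec16b overlaps the annotated gene Gm15486, one of the uncertain cases named above. Sec23ip, a Sec23-binding protein, had 360 and 276 counts (1.03, 0.879 to 1.21). In the group 7 of 14 genes had an interval above 1 (50%, against 20.7% of all compared genes) and 7 included 1. The median log2 ratio was 0.17.

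The p24 proteins, encoded by the Tmed genes, cycle between ER and Golgi as cargo receptors and held the exception of the list. Tmed11 (chromosome 5, 108777235 to 108795363) had 739 counts in db/db islets and 1491 in db/m islets, or 38.1 and 97.4 CPM. It was 2.55-fold lower in the db/db library (2.34 to 2.79), the single member called, and its log2 ratio of -1.35 lay between -1.18 and -1.56 under the other scalings and as a share of the members' counts. No other RefSeq gene overlaps it. Tmed6, another p24 gene, had 5321 and 4540 counts, which scale to 275 and 296 CPM and a ratio of 0.926 (0.89 to 0.964). Its log2 ratio of -0.11 changed sign to 0.06 with total counts and to 0.03 when these left out marker genes. At the other end, Tmed4 had 343 and 163 counts (1.66, 1.38 to 2.02), and the COPI- and COPII-binding family members Tmed2 and Tmed10 had 1588 and 984 (1.28, 1.18 to 1.38) and 1797 and 1326 (1.07, 0.997 to 1.15). The family therefore spread from 0.392 to 1.66. Tmed7 had 736 and 465 counts (1.25, 1.11 to 1.41), Tmed3 1845 and 1302 (1.12, 1.04 to 1.2) and Tmed9 210 and 133 (1.25, 1 to 1.56, the lower bound falling just under 1). Tmed5 with 307 and 234 counts and Tmed8 with 171 and 137 had intervals including 1, and Tmed1, with 18 and 14 counts, was too shallow to compare.

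Lman1 and Mcfd2 form a receptor that carries certain glycoproteins, clotting factors among them, out of the ER. Lman1 had 3348 counts in db/db islets and 1815 in db/m islets (1.46, 1.38 to 1.54), and Mcfd2 had 3390 and 2299 (1.17, 1.1 to 1.23). Both partners had intervals above 1 that did not overlap each other. KDEL receptors return ER residents that have escaped to the Golgi. Kdelr1 had 1042 and 682 counts (1.21, 1.1 to 1.33), Kdelr2 707 and 499 (1.12, 0.997 to 1.26) and Kdelr3 192 and 107 (1.42, 1.11 to 1.81). The balance among the KDEL receptors did not exclude 1 in any pair, with 1.08 for Kdelr1 against Kdelr2 (0.926 to 1.26), 1.27 for Kdelr3 against Kdelr2 (0.967 to 1.66) and 1.17 for Kdelr3 against Kdelr1 (0.904 to 1.53). Of the Sec22 genes, Sec22b, a SNARE that fuses vesicles between ER and Golgi, had 468 and 395 counts (0.936, 0.817 to 1.07). Sec22a had 115 and 65 (1.4, 1.02 to 1.93) and Sec22c 85 and 67 (1, 0.719 to 1.4). Sec22a relative to Sec22b was 1.49-fold higher in the db/db library (1.06 to 2.12). Among the 18 cargo receptor and Sec22 genes compared, 9 had an interval above 1 (50%, against 20.7% of all compared genes). For 2 it lay below 1 (11.1%, against 18.2%), and for 7 it included 1. The median log2 ratio was 0.19.

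The COPI coat, or coatomer, is a complex whose subunits are recruited to Golgi membranes as a unit. Arcn1, the delta subunit, had 4121 counts in db/db islets and 2903 in db/m islets (1.12, 1.07 to 1.18), and Copa, the alpha subunit, had 3138 and 2355 (1.05, 0.998 to 1.11). The beta subunit gene Copb1 had the highest ratio, with 1532 and 922 counts (1.31, 1.21 to 1.43), and Copb2, which encodes the unrelated beta-prime subunit, the lowest, with 1491 and 1208 (0.975, 0.904 to 1.05). Copb1 relative to Copb2 was 1.35-fold higher (1.2 to 1.51), and both promoter windows hold the element TGACGTGG shown above. Copg1 had 1261 and 761 counts (1.31, 1.2 to 1.43), its paralog Copg2 193 and 140 (1.09, 0.872 to 1.36), and their balance did not exclude 1 (1.2, 0.942 to 1.53). Cope had 1041 and 707 (1.16, 1.06 to 1.28). Copz2 had 69 and 54 counts (1.01, 0.697 to 1.47), and Copz1, with 16 and 12, was too shallow to compare. Of the 8 coatomer genes compared, 4 had an interval above 1 (50%, against 20.7% of all compared genes) and 4 included 1. The median log2 ratio was 0.14.

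**Figure D4:**
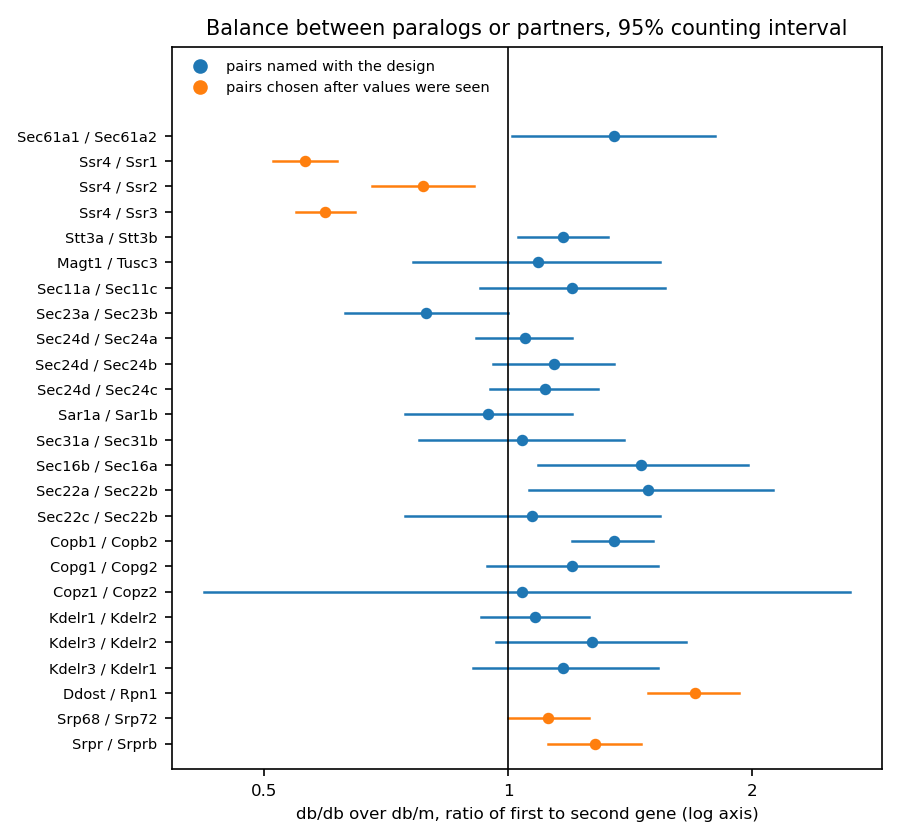
Balance between paralogs or partners of 1 complex, as the db/db over db/m ratio of the first gene relative to the second, on a log axis with 95% counting intervals from 1 library per group. Of the 19 pairs named with the design (blue) 6 exclude 1, and the 6 pairs chosen after values were seen (orange), among them Ssr4 against the other TRAP genes and Ddost against Rpn1, all exclude 1.

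Of 19 paralog or partner pairs named with the design, 6 had a balance whose interval excluded 1 (Sec61a1 and Sec61a2, Stt3a and Stt3b, Sec23a and Sec23b, Sec16b and Sec16a, Sec22a and Sec22b, Copb1 and Copb2) and 13 did not. Several pairs share a gene, and the intervals were not adjusted for the number of pairs. A balance of this kind cancels the scaling and each gene's length.

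Other genes of the pathway, 146 compared of 151 listed, were closer to the background at the filter of 1 CPM. The db/db over db/m ratio was above 1 for 99 (67.8%), against 52.4% of all compared genes, and the median log2 ratio was 0.13. The interval lay above 1 for 52 (35.6%), against 20.7% of all compared genes, and below 1 for 13 (8.9%), against 18.2%. With a filter of 10 CPM their median was 0.17, beside 0.18 for the members, so the medians then barely differed. At 2-fold and 1 CPM, 2 were higher, 1 lower and 143 neither. Of all compared genes, 3.83% were called higher and 4.04% lower. The higher genes were Alg13, a subunit of the enzyme adding the second sugar of the glycan precursor, with 55 and 12 counts (3.62, 1.92 to 7.43), and the tethering complex gene Trappc2l, with 70 and 27 (2.05, 1.3 to 3.32). The lower gene was the transcription factor gene Creb3l3, with 9 and 28 counts (3.94-fold lower, 1.81 to 9.48). Also among the highest and lowest ratios of the list, beside Xbp1 described below, were Alg5, which makes the glucose donor for the glycan precursor, with 345 and 164 counts (1.66, 1.38 to 2.01), and Dolk, the dolichol kinase, with 41 and 53 (1.64-fold lower, 1.07 to 2.52).

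By role, the 24 genes of dolichol and glycan assembly compared had a median log2 ratio of 0.33, with 10 intervals above 1 and 1 below, and the 10 COPI regulators, mostly Arf GTPases and their partners, had a median of 0.35, with 6 above and 0 below. Membrane insertion factors had a median of 0.13 (21 genes, 6 above, 1 below) and glycan trimming enzymes 0.16 (18 genes, 9 above, 5 below). COPII helpers and further cargo receptors had 0.07 (20 genes, 7 above, 1 below). Over all compared genes 20.7% of intervals lay above 1 and 18.2% below. The share above 1 was 41.7% for glycan assembly, 60% for COPI regulators, 28.6% for insertion factors and 35% for COPII helpers. Glycan trimming enzymes went both ways, with 50% above and 27.8% below. Tethers and SNAREs had a median of 0.02 (42 genes, 10 above, 3 below), the value of all genes. Their interval lay above 1 for 23.8%, near the 20.7% of all compared genes, and below 1 for 7.14%, against 18.2%. Whether glycan assembly genes stood apart from the tethers was not tested.

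Among 11 factors known to control ER and secretory genes, the median log2 ratio was 0.04. Atf6, a stress sensor cleaved in the Golgi, had 3177 counts in db/db islets and 1973 in db/m islets (1.27, 1.2 to 1.35), and Bhlha15, a factor of secretory cells and an acinar marker, had 3322 and 2047 (1.28, 1.21 to 1.36). Xbp1, which the stress sensor Ern1 activates by splicing, had 4171 and 5907 counts (1.79-fold lower, 1.72 to 1.86), and Ern1 itself had 1258 and 892 (1.11, 1.02 to 1.22). Whether the level of Xbp1 RNA bears on the ratios of the members was not tested. A gene count does not show how much of the Xbp1 RNA was spliced. Creb3l2 and Creb3l1, which act on secretory pathway genes in other cells, had intervals including 1 (1.03, 0.92 to 1.16, and 0.97, 0.839 to 1.12).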

How the data were processed

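Islet preparations of db/db mice and of db/m controls, 1 library each, were compared. Groups come from the library titles. Per the labels' protocols, total RNA was depleted of ribosomal RNA. HISAT2 2.0.4 and the builds mm10 and GRCm38 are named in the submitters' processing notes. The authors deposited whole-number counts per gene, with the counter, its annotation and its use of strand not stated in the labels.

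Counts were scaled with TMM factors (edgeR 4.0.16, R 4.3.3) over all 44713 genes and expressed as CPM. Ratios (db/db over db/m) have exact 95% Clopper-Pearson intervals, taken from the share of db/db among the 2 counts (Python 3.11.15, scipy 1.17.1). Balances of 2 genes have exact conditional odds ratio intervals. Reads copied by PCR are not independent, so intervals cover counting error only. A zero count was set to a floor of 3 counts, or to the other library's count where smaller. Calls needed 2-fold, a mean of 1 unscaled CPM and an interval excluding 1. The calling step was checked on simulated data with known folds.

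The members and lists were chosen with earlier results of these data known. All members may be named; of the other pathway genes those called, and the 3 highest and 3 lowest log2 ratios were eligible. The further transcription factors and all motifs were chosen after values were seen. Of the members, 76 matched RefSeq's GRCm38.p6 table by symbol, and 22 overlap another RefSeq gene, so their values are uncertain without strand. No transcript lengths were used, and levels were not compared between genes. Alternatives were other scalings, filters, fold limits and interval levels.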

Additional observations from a re-analysis of the deposited data

How the results depend on the processing

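No paired analysis was possible because each group had 1 library, so no replicate block could be fitted and no replicate could be left out. The members' counts of 0 higher and 1 lower held with total counts, DESeq2 size factors, total counts without marker genes, no filter, a filter of 10 CPM and an interval at the Bonferroni level. With total counts the 0 higher held narrowly, since Ddost had a log2 ratio of 0.99. With a fold limit of 1.5 the members' counts were 4 and 1, with a limit of 4 they were 0 and 0, and with no fold limit 37 and 3. The 37 intervals above 1 became 18 (24.7%, against 5.12% of all genes) at the Bonferroni level, and the 3 below 1 became 2 (2.74% against 4.86%), both settings added after the data were seen. The median log2 ratio of the members, 0.18, was 0.35 with total counts and 0.32 with total counts without marker genes, and that of the other pathway genes, 0.13, was 0.3, 0.27 and, at 10 CPM, 0.17. Their calls of 2 higher and 1 lower became 0 and 0 at 10 CPM, with a fold limit of 4 and at the Bonferroni level, 10 and 3 with a limit of 1.5, and 52 and 13 with none. Calls over all genes, 395 higher and 416 lower, became 745 and 814 without a filter, 36 and 95 at 10 CPM, 889 and 914 at 1.5-fold, 78 and 76 at 4-fold, 2135 and 1874 with no fold limit and 138 and 213 at the Bonferroni level. They became 564 higher and 277 lower with total counts, and 533 and 299 with total counts without marker genes. Higher calls made up 48.7% of all calls with TMM, 67.1% with total counts and 64.1% without marker genes. Of 73 members, 40 moved beyond their counting interval's reach with total counts and 35 with total counts without marker genes. With DESeq2 size factors 0 did, and as a share of the members' counts 46 did. Without mitochondrially encoded genes the acinar shares were 61.7% and 62.6%. Low counts limit the 3 members under 1 CPM, and Sec61g with 30 and 20 counts. Why these counts were low was not tested.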
